A study of Mus musculus with 6 samples.

Results

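The 8 genes described here, Fcer1a, Ms4a2, Cd200r3, Cpa3, Mcpt8, Prss34, Hdc and Gata2, are markers and regulators of basophils and mast cells. They were taken by symbol from a gene count table of 55573 mouse genes, and all 8 passed the filter on low counts that left 16493 genes for testing. The table comes from RNA-seq of mice of 2 genotypes, 3 wild-type (WT) libraries and 3 Abcc4-/- libraries, all labelled as megakaryocytes and with BMCD41 in their titles; CD41 is a surface integrin of megakaryocytes and platelets. Abcc4 encodes an export pump for cyclic nucleotides and for thiopurine drugs. No treatment, age or strain is given for either genotype, nor which part of Abcc4 the allele lacks or how the cells were selected. The comparison asks how the lineage genes differed between the genotypes. The design text gives 3 mice per genotype without tying a library to a mouse, so the spread behind the p-values is that between these libraries and may be technical in part.

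Basophils and mast cells are rare granulocytes that carry the high-affinity IgE receptor. When antigen cross-links IgE on this receptor, they release histamine, proteases and lipid mediators, and they make cytokines such as interleukin-4 and interleukin-13. Both lineages arise in the bone marrow from progenitors that need the transcription factor GATA2. Basophils complete their maturation there, whereas mast cells complete theirs in tissues, where they fill with chymases, tryptases and heparin.

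The total count ranged from 50440239 to 55123512 over the WT libraries and from 67009925 to 99294493 over the Abcc4-/- libraries. Values are CPM, which relate the count of a gene to the size of its library after TMM scaling, unless TPM is named. Abcc4 itself stood at 74.2, 71.8 and 75.7 CPM in WT and at 60.1, 60.5 and 62.3 CPM in Abcc4-/- (log2 fold change -0.28, SE 0.05; edgeR, adjusted p = 0.0026), which is no check of the labels where the missing part of the gene is unknown. The samples held transcripts of several cell types: 10 neutrophil genes summed to 18679 to 24679 CPM in WT and 36953 to 39614 CPM in Abcc4-/-, and 13 megakaryocyte genes to 223.6 to 281.5 and 130.0 to 165.0 CPM. With a threshold of 0.05 on the adjusted p from edgeR, 17.3% of the genes tested were called, 8.68% lower and 8.61% higher in Abcc4-/-. The higher calls were thus 49.8% of all calls, against 28.4% with limma on log2(TPM + 1), where the median of all genes lay at -0.06.

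Transcripts of basophil granule proteases were abundant in all 6 libraries, and those of mast cell chymases and tryptases were at or near 0. In TPM, which is scaled by transcript length and so allows genes to be compared, Prss34 had the highest level of the 8 genes, 1827 ± 216 TPM in WT and 1477 ± 182 TPM in Abcc4-/- (SD, n = 3). By its mean over the 6 libraries it ranked 86 of the 55573 genes. Prss34 encodes a tryptase-type serine protease of basophils. Mcpt8, the basophil granule protease that gives mouse basophils their usual genetic marker, followed at 1046 ± 135 and 860 ± 86.3 TPM, at rank 158. Its range did not overlap that of Prss34 in either genotype.

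The other 6 genes lay well below these proteases. In WT, Hdc (166 ± 13.8 TPM), Cpa3 (165 ± 17.9 TPM) and Gata2 (161 ± 26.5 TPM) had overlapping ranges, and their order cannot be told. In Abcc4-/-, Hdc (144 ± 11.3 TPM) and Cpa3 (140 ± 7.20 TPM) still overlapped, whereas all 3 Gata2 values (90.8 ± 15.8 TPM) lay below them. Fcer1a stood at 116 ± 14.7 and 87.9 ± 8.08 TPM and Ms4a2 at 94.0 ± 15.6 and 74.5 ± 7.61 TPM, with overlapping ranges in both genotypes. Cd200r3 was lowest of the 8, at 64.0 ± 16.1 and 46.6 ± 4.75 TPM, with no overlap with Ms4a2 in either genotype.

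**Figure D1:**
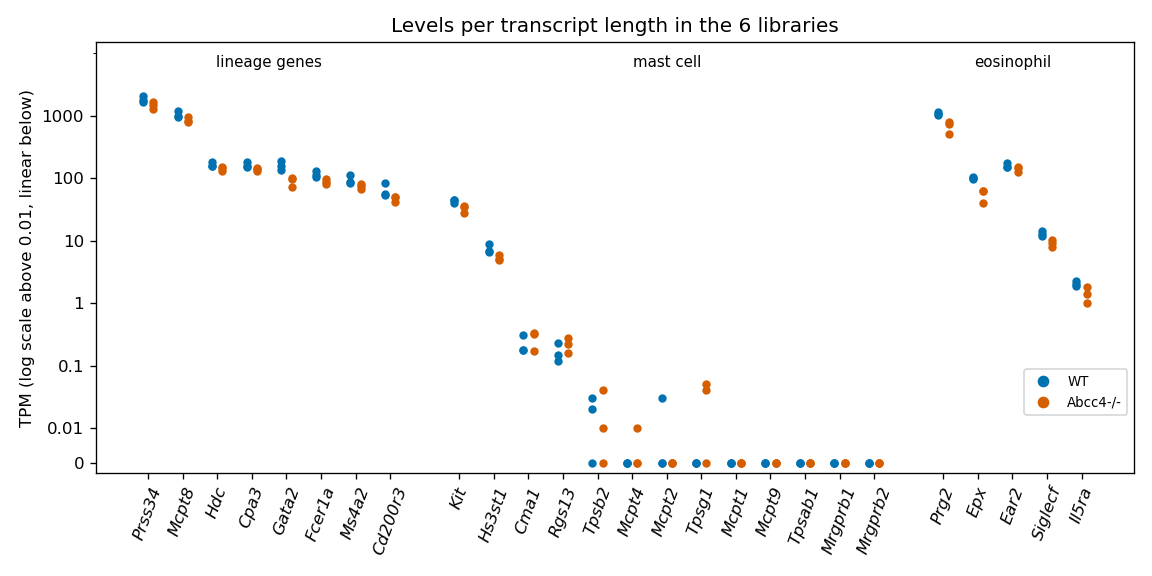
Deposited TPM (log scale above 0.01, linear below) of the 8 lineage genes, 13 mast cell genes and 5 eosinophil genes, with 1 point per library for WT (blue) and Abcc4-/- (orange). Prss34 and Mcpt8 lead the lineage genes, and the mast cell genes from Tpsb2 to the right lie at or near 0.

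Most genes that set mast cells apart from basophils were at the floor of detection. Of 13 further mast cell genes, 9 had at most 3 counts in every library: the chymase and protease genes Mcpt1, Mcpt2, Mcpt4 and Mcpt9, the tryptase genes Tpsb2, Tpsab1 and Tpsg1, and the receptor genes Mrgprb1 and Mrgprb2. Of these, 5 had 0 counts in all 6 libraries, where 3 counts correspond to between 0.0304 and 0.0591 CPM (this floor covers counting error only). The chymase gene Cma1 was low, between 0.110 and 0.226 CPM. Kit, the stem cell factor receptor of mast cells and of early progenitors, was well detected at 117 to 129 CPM in WT and 89.0 to 107 CPM in Abcc4-/-. Other basophil genes were present: Itga2, which encodes the basophil surface integrin CD49b, at 7.39 to 15.2 CPM, and Il3ra, the alpha chain of the interleukin-3 receptor, at 45.9 to 61.6 CPM.

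Of the 8 lineage genes, 2 fell in Abcc4-/-, Gata2 and Fcer1a, and 0 rose. The background is 8.68% of tested genes called lower. All 8 had a fitted log2 fold change below 0, as did 49.8% of the genes tested, and their median was -0.22 against 0.00091 over all genes tested. In CPM, the groups did not overlap for 4 of the 8 (Gata2, Fcer1a, Cpa3 and Hdc), all lower in Abcc4-/-, where 18.3% of tested genes were lower without overlap. In TPM, Ms4a2 and Cd200r3 were also lower without overlap, and the share over all genes was not counted on that scale. At an unadjusted p of 0.05, 5 of the 8 were lower, against 15.6% of tested genes. Over the alternatives this count ranged from 2 to 8, and the share of tested genes was not counted for them. The members were few and shared their cells and libraries, so these shares are a description of the 8 genes. In these bulk samples, fewer cells of a type and less RNA per cell cannot be told apart.

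**Figure D2:**
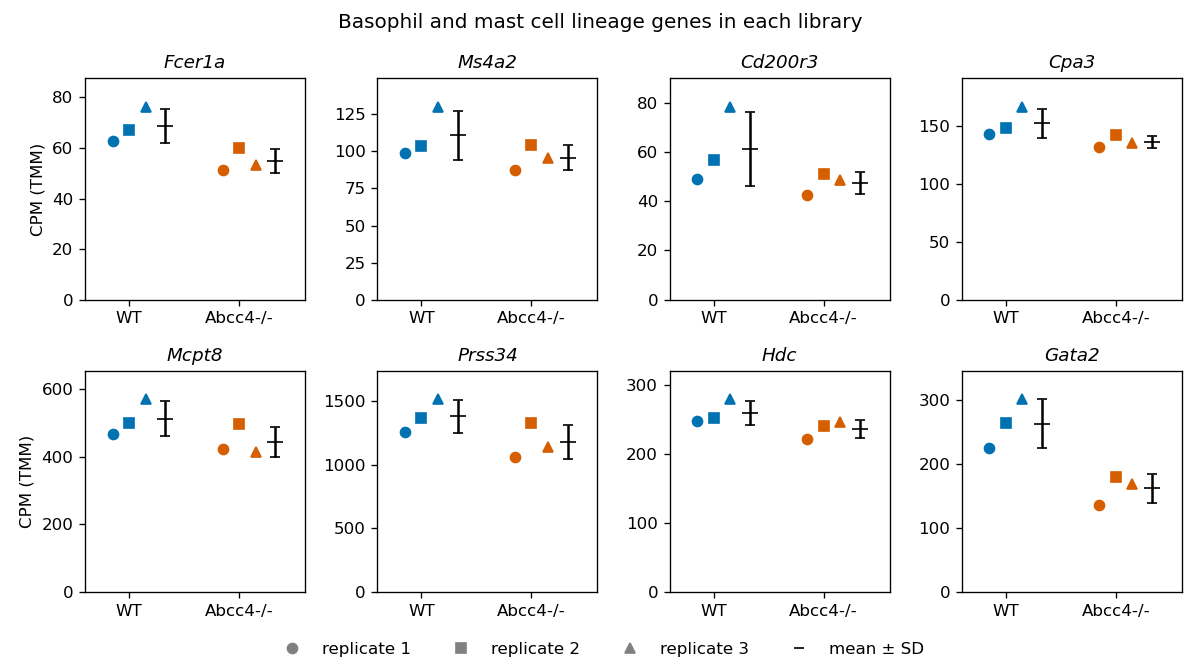
CPM of each lineage gene (linear axis from 0) in the 3 WT (blue) and 3 Abcc4-/- (orange) libraries, with symbols for the replicate number and the mean ± SD in black. Gata2 shows the clearest gap between genotypes, from 225 CPM for the lowest WT library to 179 CPM for the highest Abcc4-/- library, and Ms4a2, Mcpt8, Prss34 and Cd200r3 overlap.

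Gata2 (ENSMUSG00000015053.14, chromosome 6, positions 88193891 to 88207032, plus strand, GRCm38) encodes the zinc finger transcription factor that basophil and mast cell progenitors require, and that stem cells and early megakaryocyte progenitors also express. It had 225, 263 and 301 CPM in WT and 137, 179 and 169 CPM in Abcc4-/-. Each Abcc4-/- library lay below each WT library. The level in Abcc4-/- was 61.5% of that in WT (log2 fold change -0.70, SE 0.14, 95% interval -1.04 to -0.37; edgeR quasi-likelihood test, adjusted p = 0.0185). The call was lost without WT replicate 2 (adjusted p = 0.0690), WT replicate 3 (0.0525) or Abcc4-/- replicate 3 (0.0658), and with no filter on low counts (0.0792), while the log2 fold change stayed between -0.83 and -0.59 over all 18 alternatives.

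Fcer1a (ENSMUSG00000005339.10, chromosome 1, positions 173221284 to 173227214, minus strand) encodes the alpha chain that binds IgE. Its levels were 62.8, 67.2 and 76.1 CPM in WT and 51.2, 60.0 and 53.1 CPM in Abcc4-/-. The groups did not overlap, and the nearest libraries, WT replicate 1 and Abcc4-/- replicate 2, were close. The mean in Abcc4-/- was 79.8% of that in WT (log2 fold change -0.33, SE 0.08, 95% interval -0.51 to -0.15; edgeR, adjusted p = 0.0209). The call was lost without WT replicate 2 (adjusted p = 0.0523), Abcc4-/- replicate 1 (0.0869) or Abcc4-/- replicate 3 (0.0603), and on the TPM scales where limma used 1 prior variance for all genes (0.0595 and 0.0897).

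The beta chain of the same receptor, which amplifies its signal, is encoded by Ms4a2 (ENSMUSG00000024680.12, chromosome 19, positions 11615523 to 11623719, minus strand). It had 99.01, 104 and 130 CPM in WT and 87.3, 105 and 95.7 CPM in Abcc4-/-, with overlap. WT replicate 3 stood above the other 5 libraries. The log2 fold change of -0.21 (SE 0.11, 95% interval -0.47 to 0.06) did not pass (edgeR, adjusted p = 0.260). The deposited expected counts of Ms4a2 were not whole numbers, so its level is in part an estimate. The third chain, Fcer1g, is shared with Fc receptors of other leukocytes. It stood at 285 to 309 CPM in WT and 321 to 343 CPM in Abcc4-/- and did not pass (log2 fold change 0.15, SE 0.05; adjusted p = 0.0795), though it did with the replicate number as a block and with DESeq2 (0.0380 to 0.0446).

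Cd200r3 (ENSMUSG00000036172.17, chromosome 16, positions 44943678 to 44981380, plus strand) encodes an activating receptor of the CD200R family on basophils and mast cells. It had 48.8, 56.6 and 78.1 CPM in WT and 42.3, 51.2 and 48.5 CPM in Abcc4-/-. It varied most within WT, with an SD of 24.8% of the mean, and its groups overlapped. The log2 fold change was -0.37 (SE 0.20, 95% interval -0.87 to 0.13; edgeR, adjusted p = 0.280), an interval that holds both a fall larger than that of Fcer1a and no change.

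The promoters of the receptor chains, of the most abundant protease and of Gata2 are shown because these genes carry the levels and the changes above. Each is the 250 bases before the start of transcription in RefSeq (GRCm38.p6), 5′ to 3′ on the strand of the gene. Capitals mark a GATA word, to which GATA factors are known to bind: the letters GATA with A or T before and A or G after them, on either strand (TTATCT is such a word on the opposite strand).
Fcer1a, chr1:173227230-173227479, minus strand: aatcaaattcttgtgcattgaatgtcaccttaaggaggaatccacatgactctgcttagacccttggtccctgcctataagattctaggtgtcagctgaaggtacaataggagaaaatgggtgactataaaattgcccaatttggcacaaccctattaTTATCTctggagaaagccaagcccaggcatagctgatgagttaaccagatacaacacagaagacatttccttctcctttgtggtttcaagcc
Ms4a2, chr19:11623720-11623969, minus strand: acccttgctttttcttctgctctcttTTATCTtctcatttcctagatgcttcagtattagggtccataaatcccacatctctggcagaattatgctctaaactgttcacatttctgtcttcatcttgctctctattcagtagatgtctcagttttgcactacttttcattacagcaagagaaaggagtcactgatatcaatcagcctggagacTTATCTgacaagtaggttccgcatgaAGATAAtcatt
Prss34, chr17:25298144-25298393, plus strand: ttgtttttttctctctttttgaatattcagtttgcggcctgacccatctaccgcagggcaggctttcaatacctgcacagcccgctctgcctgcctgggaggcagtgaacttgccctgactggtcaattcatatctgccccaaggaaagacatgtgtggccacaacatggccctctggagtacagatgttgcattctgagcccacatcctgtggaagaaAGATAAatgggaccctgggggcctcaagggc
Gata2, chr6:88193641-88193890, plus strand: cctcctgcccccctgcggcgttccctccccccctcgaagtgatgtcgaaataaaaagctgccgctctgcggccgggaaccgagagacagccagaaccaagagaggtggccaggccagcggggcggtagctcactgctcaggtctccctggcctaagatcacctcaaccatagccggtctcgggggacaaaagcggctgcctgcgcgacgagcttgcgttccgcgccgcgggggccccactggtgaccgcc

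All 8 genes had a promoter in the RefSeq table, Gata2 with 2 start sites. A GATA word was present before 6 of the 8 genes, all but Mcpt8 and Gata2. By window this was 6 of 9, against 26.5% of the 32851 promoter windows of the table. The GC content of the 6 windows was 38.8% to 52.4%, where the median of all windows was 52.4%, and its part was not tested. Ms4a2 and Cd200r3 had 3 words each, of which a pair in Cd200r3 lay end to end; 6.4% of all windows had 2 or more. In Ms4a2, Cpa3, Prss34 and Cd200r3 a word began within 50 bases of the start, at 11, 46, 31 and 33 bases upstream for the nearest. The share of all windows with a word so near was not counted. The RUNX word TGTGGT was present before Fcer1a, Cpa3 and Mcpt8, and in 14% of all windows. The STAT pattern TTCNNNGAA was present before 0 of the 8 genes and in 7.02% of all windows. A match is a run of letters, and binding was not measured in these samples.

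The granule enzymes were lower in Abcc4-/- by small amounts that did not pass the test. Prss34 (ENSMUSG00000056399.2, chromosome 17, positions 25298394 to 25300165, plus strand) had 1256, 1369 and 1511 CPM in WT and 1063, 1327 and 1139 CPM in Abcc4-/-. Only Abcc4-/- replicate 2 reached the WT range. The level in Abcc4-/- was 85.3% of WT (log2 fold change -0.23, SE 0.09, 95% interval -0.43 to -0.02; edgeR, adjusted p = 0.121), and it passed without Abcc4-/- replicate 2 (0.0428).

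Mcpt8 (ENSMUSG00000022157.8, chromosome 14, positions 56082166 to 56085273, minus strand) had 468, 501 and 569 CPM in WT and 423, 496 and 413 CPM in Abcc4-/-. Again Abcc4-/- replicate 2 alone lay inside the WT range. The log2 fold change was -0.21 (SE 0.09, 95% interval -0.40 to -0.01; edgeR, adjusted p = 0.141). Mcpt8 is on the same chromosome as Abcc4, at a distance of 62.4 Mb.

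Cpa3 (ENSMUSG00000001865.2, chromosome 3, positions 20215620 to 20242181, minus strand) encodes the carboxypeptidase of mast cell granules, which basophils and early myeloid progenitors also express. It had 142, 148 and 166 CPM in WT and 131, 142 and 135 CPM in Abcc4-/-. The groups did not overlap, but the highest Abcc4-/- library was within 1 CPM of the lowest WT library. The log2 fold change of -0.16 (SE 0.06, 95% interval -0.30 to -0.02) did not pass (edgeR, adjusted p = 0.105).

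Hdc (ENSMUSG00000027360.5, chromosome 2, positions 126593667 to 126619299, minus strand) encodes the enzyme that makes histamine from histidine, and immature myeloid cells are also known to express it. It had 247, 252 and 279 CPM in WT and 222, 240 and 246 CPM in Abcc4-/-. The groups lay side by side without overlap. Its log2 fold change was the smallest of the 8, -0.13 (SE 0.06, 95% interval -0.27 to 0.0016; edgeR, adjusted p = 0.167).

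**Figure D3:**
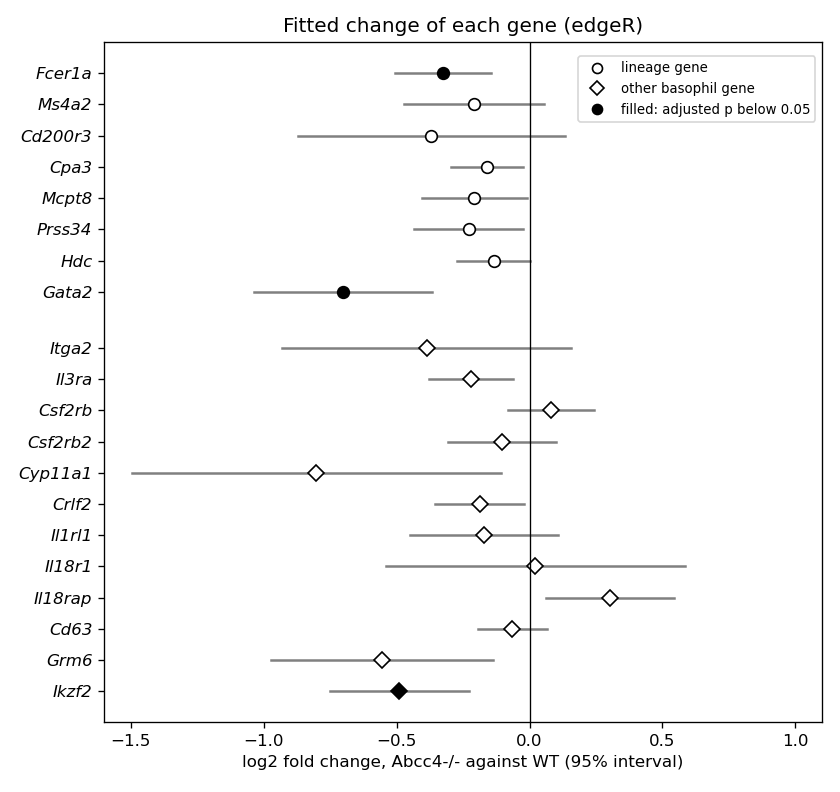
Log2 fold change of Abcc4-/- against WT with its 95% interval from edgeR for the 8 lineage genes (circles) and 12 other basophil genes (diamonds); filled symbols passed an adjusted p of 0.05. Gata2 and Fcer1a are the filled circles and Ikzf2 the filled diamond, and most other points lie left of 0 with intervals close to or across it.

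Together the 8 genes took 0.282 ± 0.0297% of all counts in WT and 0.234 ± 0.0227% in Abcc4-/- (SD, n = 3), which is 83.1% of the WT share. The WT libraries lay between 0.254% and 0.313% and the Abcc4-/- libraries between 0.213% and 0.258%, so the ranges overlapped. Prss34 and Mcpt8 made up 68.3% of these counts. Without them, a cut that was not planned, the share in Abcc4-/- was 79.4% of that in WT. The genes left include Gata2, at 61.5% of WT in the edgeR fit, while Fcer1a, Ms4a2, Cpa3, Hdc and Cd200r3 stood at 77.4% to 91.1%.

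The order of the libraries within each genotype was similar for the 8 genes. WT replicate 3 was the highest and WT replicate 1 the lowest WT library for all 8. WT replicate 3 was the highest WT library for 36.6% of all genes tested. Abcc4-/- replicate 1 was the lowest of its group for 7 of the 8, all but Mcpt8, against 37.5% of all genes tested. Both held for those 7 genes, and for 16.2% of all genes tested. Relative to the WT mean of each gene, the median log2 difference over the 8 genes was -0.13 in WT replicate 1 and -0.10 in Abcc4-/- replicate 2, so these libraries stood almost level. It was 0.15 in WT replicate 3 and -0.35 in Abcc4-/- replicate 1.

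**Figure D4:**
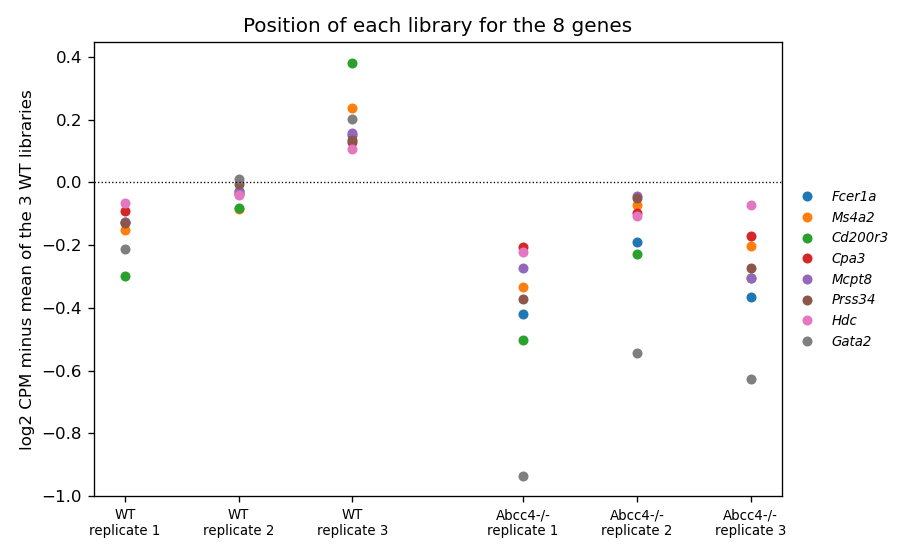
Difference in log2 CPM from the mean of the 3 WT libraries for each lineage gene (colours), with 1 column of points per library. In the Abcc4-/- libraries Gata2 lies below the other 7 genes, at -0.94 in replicate 1, -0.54 in replicate 2 and -0.63 in replicate 3.

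Ratios of counts within a library compare the genes with each other. The ratio of Mcpt8 to Prss34 counts was -1.43 ± 0.022 on the log2 scale in WT and -1.40 ± 0.067 in Abcc4-/- (SD, n = 3), and the two-sided exact permutation test did not separate them (p = 0.8, or 0.862 adjusted over 28 pairs). The log2 ratio of Prss34 to Gata2 was 2.40 ± 0.077 in WT and 2.87 ± 0.107 in Abcc4-/- (exact permutation p = 0.1, the smallest that 3 against 3 allows; adjusted p = 0.255). In all 7 pairs with Gata2 the groups did not overlap, with Gata2 relatively lower in Abcc4-/-; the same held for 81.9% of all tested genes paired with Gata2, so the count is near that of genes in general. Fcer1a was relatively lower without overlap in 4 of its 6 other pairs, against Cpa3, Mcpt8, Prss34 and Hdc, where 53.7% of all tested genes paired with Fcer1a gave this. In the 15 pairs without Gata2 and Fcer1a, 0 were without overlap. These pairs reuse the same genes and no share over all genes was counted for them, so this does not show fixed proportions. No pair passed after adjustment, which this design does not allow.

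Of 14 other basophil genes, 12 were tested, 1 fell and 0 rose, against 8.68% and 8.61% of all genes tested. The log2 fold change was below 0 for 9 (median -0.18). Without overlap, 4 were lower, against 18.3% of all genes tested. The 14 genes summed to 1014 to 1148 CPM in WT and 950 to 1136 CPM in Abcc4-/-, so the ranges of the sum overlapped. Cyp11a1 had 43.4, 57.2 and 76.9 CPM in WT and 27.4, 37.6 and 36.6 CPM in Abcc4-/-. Neither it (log2 fold change -0.80; edgeR, adjusted p = 0.121) nor Grm6 (-0.55; adjusted p = 0.0736) passed, and both were named after their values were seen. Ikzf2, which encodes the zinc finger factor Helios, had 25.2, 29.1 and 33.4 CPM in WT and 18.3, 22.7 and 21.4 CPM in Abcc4-/-, without overlap (log2 fold change -0.49, SE 0.11; edgeR, adjusted p = 0.0225). It lost its call without WT replicate 2, Abcc4-/- replicate 1 or Abcc4-/- replicate 3, and with limma on log2(TPM + 0.1) with 1 prior variance (0.0551 to 0.0751). Il3ra did not pass (55.1 ± 5.72 and 47.3 ± 2.0 CPM; log2 fold change -0.22, adjusted p = 0.0564, but 0.0109 to 0.0463 under 5 of the alternatives), nor did Itga2 (11.5 ± 3.30 and 8.78 ± 1.24 CPM; log2 fold change -0.39, adjusted p = 0.300). The count of this list called lower ranged from 0, under the same 4 settings that ended the call of Ikzf2 (edgeR and limma; 3 to 6 of its genes were lower at an unadjusted p of 0.05), to 5, with the replicate number as a block.

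Of the 13 other mast cell genes, 4 were tested, 2 fell and 0 rose, against 8.68% and 8.61% of all genes tested. Only the 2 that fell had a log2 fold change below 0 (median of the list 0.04). Kit fell from 122 ± 6.61 to 99.4 ± 9.33 CPM (log2 fold change -0.29, SE 0.07; edgeR, adjusted p = 0.0164). Hs3st1, an enzyme that modifies heparan sulfate chains, fell from 7.89 ± 1.1 to 5.92 ± 0.485 CPM (log2 fold change -0.41, SE 0.11; adjusted p = 0.0254). Kit lost its call without WT replicate 2 or Abcc4-/- replicate 1, and on both TPM scales with 1 prior variance (edgeR and limma, 0.0518 to 0.101). Hs3st1 lost it without WT replicate 3, Abcc4-/- replicate 1 or Abcc4-/- replicate 3 (edgeR). It also lost it with limma on log2(TPM + 1) and on both TPM scales with 1 prior variance (0.0510 to 0.0963 over these 6 settings). The chymase Cma1 went the other way and did not pass (log2 fold change 0.38; edgeR, adjusted p = 0.601).

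Among 17 genes of IgE receptor signalling, which are shared with other leukocytes, 2 fell and 2 rose (median log2 fold change 0.02). Of all genes tested, 8.68% fell and 8.61% rose, so both counts are near that of genes in general. The adaptor gene Gab2, which links the receptor to PI3-kinase, fell from 94.6 ± 6.40 to 65.4 ± 4.97 CPM (log2 fold change -0.53, SE 0.07; edgeR, adjusted p = 0.00039). Lat2, a membrane adaptor, fell from 85.2 ± 1.86 to 73.1 ± 1.67 CPM (adjusted p = 0.0086). The kinase gene Syk rose from 523 ± 22.8 to 596 ± 9.38 CPM (adjusted p = 0.0339), and the inhibitory phosphatase gene Ptpn6 from 412 ± 20.9 to 486 ± 9.05 CPM (adjusted p = 0.013). Leaving out any library except WT replicate 3 ended the call of Syk, as did every TPM scale (0.0684 to 0.428). Ptpn6 lost it without Abcc4-/- replicate 2 and on the TPM scales with 1 prior variance (0.0569 to 0.109). All 10 neutrophil genes measured rose in the same libraries, and their part in these values was not tested.

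In the list of histamine and lipid mediator genes, 13 of 14 were tested, 1 fell and 2 rose (median log2 fold change 0.01). The shares over all genes tested were 8.68% and 8.61%. Srgn, the proteoglycan core to which granule proteases and histamine bind, fell from 668 ± 12.8 to 490.2 ± 12.5 CPM (log2 fold change -0.45, SE 0.05; edgeR, adjusted p = 0.00023). The histamine receptor gene Hrh2 rose from 29.8 ± 1.38 to 40.1 ± 5.05 CPM (adjusted p = 0.0071), and Alox5, which starts leukotriene synthesis, from 166 ± 4.84 to 198 ± 16.0 CPM (adjusted p = 0.0154). Both lost their calls on every TPM scale, and Alox5 also without Abcc4-/- replicate 2 (0.0742 to 0.203).

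Of 15 other transcription factor genes of the lineage, 5 fell and 0 rose (median log2 fold change -0.14), against 8.68% and 8.61% of all genes tested. Cebpb fell from 134 ± 9.86 to 75.9 ± 0.956 CPM (log2 fold change -0.82, SE 0.06; edgeR, adjusted p = 7.3e-06). Mitf, the master regulator of mast cell genes, fell from 14.8 ± 1.0 to 11.2 ± 0.365 CPM (log2 fold change -0.40, SE 0.07; adjusted p = 0.0031). Runx1 fell from 140 ± 12.7 to 111 ± 4.84 CPM (adjusted p = 0.0058) and Tal1 from 33.6 ± 1.08 to 28.0 ± 1.72 CPM (adjusted p = 0.012). Cebpa, whose balance with Gata2 is known to guide basophil and mast cell fate, fell from 151 ± 7.10 to 133 ± 4.54 CPM (adjusted p = 0.0357), and its call ended on leaving out any library except WT replicate 3, and with limma on log2(TPM + 0.1) with 1 prior variance (0.050 to 0.131). Tal1 lost it on every TPM scale (0.0520 to 0.0851). In the same libraries 5 of 8 stem and progenitor genes and 9 of 13 megakaryocyte genes fell. Their part in these values was not tested, and which cells the transcripts came from was not measured.

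Inducible cytokine genes of these cells, which were kept out of the lineage list, showed far larger differences. Of 9 tested, 7 fell and 0 rose (median log2 fold change -2.49), against 8.68% and 8.61% of all genes tested. Il13, a cytokine of type 2 immunity, fell from 1.35 ± 0.317 to 0.154 ± 0.0631 CPM (log2 fold change -3.17, SE 0.30; edgeR, adjusted p = 5.4e-05), on 54 to 92 counts in WT libraries and 10 to 15 in Abcc4-/- libraries. Osm, a cytokine of the interleukin-6 family, fell from 439 ± 35.3 to 97.2 ± 19.4 CPM (adjusted p = 0.0007), and Ccl3, a chemokine, from 450.0 ± 103 to 80.1 ± 9.16 CPM (adjusted p = 0.0015). Tnf fell from 26.5 ± 2.18 to 20.2 ± 1.04 CPM (adjusted p = 0.0035, or 0.0502 with limma on log2(TPM + 0.1) with 1 prior variance). Areg, a growth factor of the EGF family, had 36, 24 and 26 counts in WT and 1, 1 and 0 in Abcc4-/- (adjusted p = 4.2e-05). Il4, named after its values were seen, did not pass (2.19 ± 0.829 and 1.17 ± 0.288 CPM; adjusted p = 0.0567). Neutrophils and macrophages also express several of these genes, and which cells the transcripts came from was not measured.

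Genes of cell types that share progenitors or markers with basophils were measured in the same libraries, where 8.68% of all genes tested fell and 8.61% rose. Of 9 eosinophil genes 4 fell and 0 rose, with a median of -0.57 and sums of 870 to 930 CPM in WT and 449 to 665 CPM in Abcc4-/-. Of 8 stem and progenitor genes 5 fell and 0 rose, with a median of -0.41 and sums of 253 to 263 and 213 to 231 CPM. Of the 13 megakaryocyte genes 9 fell and 1 rose, with a median of -0.65. Of 5 genes of granulocyte and monocyte progenitors, 1 fell (Mpo) and 0 rose, with a median of -0.02 and sums of 5532 to 6758 CPM in WT and 5392 to 5618 CPM in Abcc4-/-. Their part in the values of the 8 genes was not tested, and no test compared the lists.

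The genes whose pattern over the 6 libraries was most like the mean log2 CPM of Fcer1a, Ms4a2, Mcpt8, Prss34, Cpa3 and Cd200r3 were Gpr137b (Pearson r = 0.991), Cbfa2t3 (0.990) and 2810021J22Rik (0.989), among the 12089 genes whose mean log2 CPM reached 1. None of these passed the test (edgeR, adjusted p = 0.168, 0.0673 and 0.652; log2 fold changes -0.19, -0.19 and -0.067), though Cbfa2t3 did without WT replicate 1 and with no filter on low counts (0.0235 to 0.0432). In all, 242 genes reached an r of 0.9. The 6 libraries form 2 genotypes and share depth differences, so r is a description of likeness here. Hdc and Gata2, which were not part of the mean, had r of 0.918 and 0.914.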

How the data were processed

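Polyadenylated RNA of 6 samples was sequenced as stranded paired-end libraries, per the labels' protocols. STAR 2.7, RSEM 1.3.1 and the build mm10 are named in the submitters' processing notes. The authors deposited expected counts per gene, not normalized, and TPM scaled within each sample; 92 spike-in entries, at 0 counts, were left out. Gene positions are from GENCODE M21 (GRCm38).

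After rounding of the expected counts, Abcc4-/- was compared with WT in edgeR 4.0.16 under R 4.3.3 (TMM, default filter on low counts, robust quasi-likelihood fit), with Benjamini-Hochberg adjustment over 16493 genes. SE and 95% intervals come from the fold change, its F statistic and degrees of freedom. The procedure was also run on simulated data with known changes in fewer genes than were called here, and its recovery is not reported. Alternatives used DESeq2 1.42.0, limma 3.58.1 (voom, and log2(TPM + 1) and log2(TPM + 0.1), which understate changes of low genes), other scalings and filters, thinning to 1 depth, the replicate number as a block, and each library left out in turn. On the TPM scales limma used a robust variance trend; 1 prior variance for all genes was added after the data were seen.

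Named are the 8 members, Abcc4, up to 5 called genes per lineage list with the smallest p, 7 defining genes (Kit, Cma1, Mcpt4, Tpsb2, Itga2, Il3ra and Fcer1g) and the 3 most alike. Il4, Mpo, Cyp11a1 and Grm6 were named after their values were seen. The members and lists were chosen with earlier results of these data known.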

Additional observations from a re-analysis of the deposited data

How the results depend on the processing

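All 8 lineage genes kept a log2 fold change below 0 under each of the 18 alternatives, and 133 of these 144 values stayed on their side of the threshold. Most of these values belong to genes that were not called. Of the 2 called genes, Fcer1a lost its call under 5 of the 18 and Gata2 under 4, and Prss34 gained a call under 2. The count of the 8 that were called, 2 in the test reported, was 1 with no filter on low counts, 1 on each TPM scale with 1 prior variance, and 0 to 3 with 1 library left out. It was 0 without WT replicate 2 or Abcc4-/- replicate 3 (edgeR; 3 genes at an unadjusted p of 0.05 in each case), 1 without WT replicate 3 or Abcc4-/- replicate 1, and 3 without Abcc4-/- replicate 2; the cause was not tested. The share of counts of the 8 genes in Abcc4-/- was 78.9% to 88.1% of that in WT with 1 library left out. Over all genes tested, 2852 were called, against 1760 to 2415 with 1 library left out (1760 without Abcc4-/- replicate 2 and 1821 without Abcc4-/- replicate 1), and 1773 and 1263 on log2(TPM + 1) and log2(TPM + 0.1) with 1 prior variance. Of the calls, 49.8% were higher in the count test and 28.4% and 27.9% on these TPM scales with the variance trend.

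No pairing by the replicate numbers in the titles was seen. Deviations of same-numbered libraries from their group means correlated at -0.046, -0.026 and -0.014, and those of other pairs at -0.060 to 0.085. With 3 libraries per group, these values cannot settle whether same-numbered libraries shared a batch. With the replicate number as a block, 3157 genes and 3 of the 8 were called, Prss34 in addition (log2 fold change -0.23, adjusted p = 0.0422). Calls in the other lists ranged, over the alternatives, from 0 to 5 lower and 0 to 1 higher for the other basophil genes (1 and 0 reported), 0 to 2 lower for the mast cell genes (2), and 2 to 3 lower and 0 to 3 higher for IgE receptor signalling (2 and 2). They ranged from 1 to 3 lower and 0 to 2 higher for the mediator genes (1 and 2), 3 to 6 lower for the transcription factors (5) and 5 to 9 lower for the cytokines (7). Depth limits the 9 mast cell genes with at most 3 counts in a library, for which no difference was detectable.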
